A study of Mus musculus with 24 samples.

Results

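Slc2a1, Ogt, Aldoa and Adm are genes of glucose uptake, O-GlcNAc modification and the response to low oxygen, and are described here in mouse embryos 1 h after a heat shock. They were found as the array probes whose platform annotation gives exactly 1 gene symbol, equal to 1 of these 4 names. Of 15360 probes in all, 11 met this rule, and they stand for 4 of the 6970 genes with such a probe. Slide type 1 held 9 of them (2 for Slc2a1, 1 for Ogt, 2 for Aldoa and 4 for Adm) and slide type 2 held the other 2, both for Ogt. The 4 genes had been chosen by their log ratios in this same comparison of heat-shocked with control embryos, so those log ratios are given as a description, with no test.

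Slc2a1 encodes GLUT1, a membrane carrier that lets glucose into the cell and is widely used by embryonic tissue before and during organ formation. Part of the glucose that enters goes through glycolysis, in which aldolase A, encoded by Aldoa, splits a fructose bisphosphate, and part goes through the hexosamine pathway to the sugar nucleotide that O-GlcNAc transferase, encoded by Ogt, attaches to serines and threonines of nuclear and cytosolic proteins. Adm encodes adrenomedullin, a secreted peptide that widens blood vessels and acts in the growth of vessels and lymphatics in the embryo. Slc2a1, Aldoa and Adm are known target genes of the hypoxia-inducible factor HIF-1.

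In the treated group, embryos in culture were brought to 43 °C for 15 min and then kept at 37 °C for 1 h. Control embryos stayed untreated in culture at 37 °C. Total RNA of both was hybridised together on arrays with 2 channels, in 3 numbered treatments, on 2 slide types with different probes, which gave 24 arrays. The sources used here do not give stage, strain or number of embryos. Each treatment had 4 arrays per slide type, of which 2 carried the heat-shocked sample in channel 1 and 2 in channel 2. In each channel order 1 array carried a suffix B in its slide code, whose meaning is not stated. Whether the treatments came from different litters is not labelled, so the spread between them, and every p-value below, describes these 3 treatments and may be technical. RNA of whole embryos was measured, so fewer cells of a type and less RNA per cell cannot be told apart.

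The values are the authors' log ratios. Log base and numerator are both unstated. They are given as channel 1 over channel 2, with the sign turned on arrays that had heat-shocked RNA in channel 2 and each array centred on the median of its probes. A positive value therefore means more RNA in heat-shocked embryos only if the deposited ratio was formed that way. With the opposite convention every value changes sign, the sides below are exchanged and all sizes stay as they are. The small heat shock protein gene Hspb1, which is no member, lay on the positive side of slide type 2 at 2.23 ± 0.05 (SD, n = 3). One unit is a 2-fold difference if the log has base 2 and a 2.72-fold difference if it is natural. Once their 4 arrays were averaged, pairs of treatments had r = 0.704 to 0.801 over all probes for slide type 1, and 0.823 to 0.904 for slide type 2. Single arrays of different treatments but the same channel order correlated at 0.294 at the lowest on slide type 1 and at −0.337 on slide type 2, so on slide type 2 the direction of a single array or channel order is not settled. Single arrays of slide type 2 are given below to show their spread.

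The genes fell on both sides. All 11 probes kept 1 side in all 3 treatments: the 2 probes of Slc2a1 and the 3 of Ogt were negative, and the 2 probes of Aldoa and the 4 of Adm were positive. Slc2a1 and Aldoa, both genes of glucose use and both HIF-1 targets, thus lay on opposite sides. Without centring, 10 of the 11 probes kept 1 side in all treatments, among them Slc2a1 probe 1012, which read −0.005 in treatment 3. Keeping 1 side follows in part from the choice of these genes by their log ratios. The share of all probes that kept 1 side is not given here. For orientation, 5.65% of the 3838 genes of slide type 1 passed limma's test (adjusted p below 0.05) on the negative side and 5.73% on the positive side. For the 4075 genes of slide type 2 the shares were 31.9% and 18.5%.

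**Figure D1:**
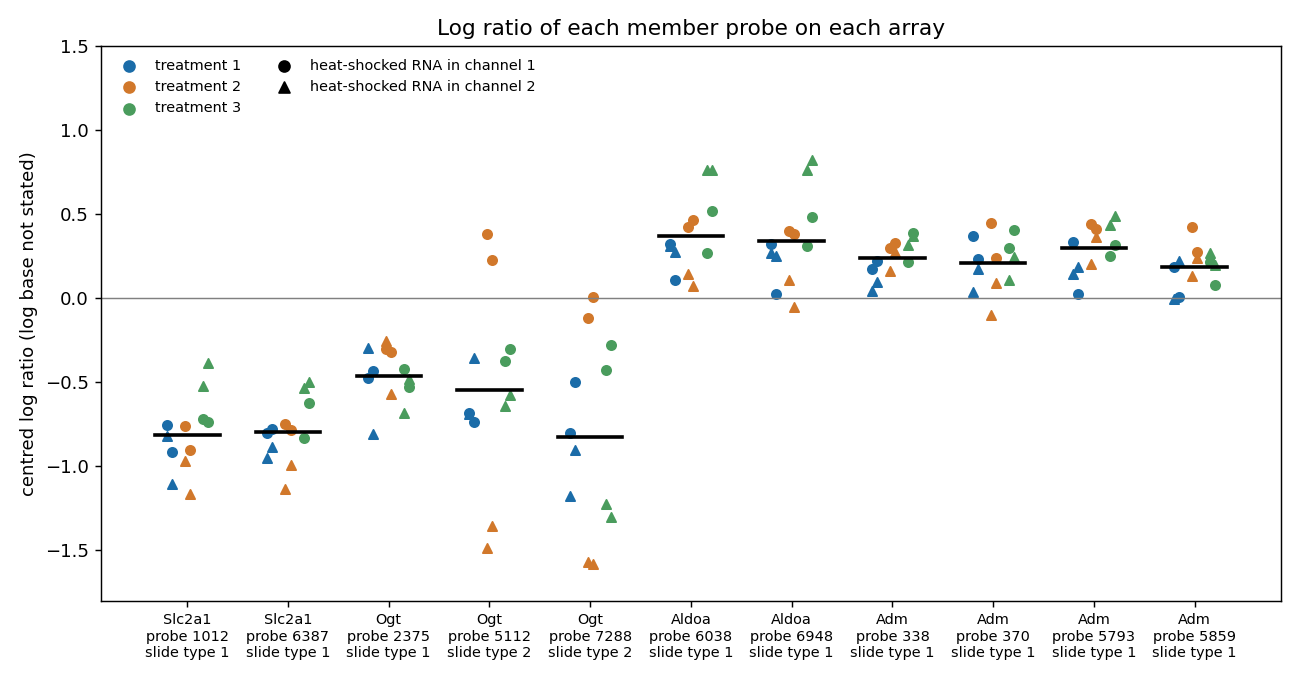
Centred log ratio (y axis, log base not stated) of each of the 11 probes on each of the 12 arrays of its slide type. Colours give the treatment, symbols the channel of the heat-shocked RNA, and black bars the mean of the 3 treatments; the Slc2a1 probes and the Ogt probe of slide type 1 lie below 0 on every array, the Aldoa and Adm probes lie at or above 0 on nearly all arrays, and the Ogt probes of slide type 2 are spread most widely, from −1.58 to 0.38.

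The start regions of these genes were read from RefSeq (build GRCm38.p6) and are shown because both sides of the comparison hold HIF-1 targets. The array files name no genome build. The 250 bases before each start used here were searched on both strands for the core of the HIF-1 site, ACGTG or GCGTG. They were also searched for a pair of inverted heat shock element units, GAANNTTC or TTCNNGAA. The starts used for Aldoa and Ogt lie inside the gene bounds given below. The bases before the outermost ends of these genes were thus not searched as windows of their own. Capitals mark the HIF-1 core matches, which read CACGT or CACGC where the match is on the strand opposite to the printed one, and each sequence is printed 5′ to 3′ on the strand of the gene. Slc2a1 is annotated at chr4:119108745-119137330, Adm at chr7:110627657-110629820, Aldoa at chr7:126795234-126800994 and Ogt at chrX:101640011-101684351. The printed windows are chr4:119108495-119108744 (plus strand) for Slc2a1, chr7:110627407-110627656 (plus strand) for Adm, and, for Aldoa, chr7:126799255-126799504 (minus strand), which precedes an annotated start within the gene.
Slc2a1: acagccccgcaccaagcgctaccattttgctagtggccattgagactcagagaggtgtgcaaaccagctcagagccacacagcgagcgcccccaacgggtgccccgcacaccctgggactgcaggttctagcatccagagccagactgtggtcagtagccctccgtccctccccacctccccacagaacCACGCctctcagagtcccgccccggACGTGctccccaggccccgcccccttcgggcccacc
Adm: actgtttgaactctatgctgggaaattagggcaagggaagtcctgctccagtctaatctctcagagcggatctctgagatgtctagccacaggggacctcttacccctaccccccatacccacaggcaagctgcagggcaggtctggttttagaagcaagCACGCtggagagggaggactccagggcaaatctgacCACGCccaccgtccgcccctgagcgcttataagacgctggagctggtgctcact
Aldoa: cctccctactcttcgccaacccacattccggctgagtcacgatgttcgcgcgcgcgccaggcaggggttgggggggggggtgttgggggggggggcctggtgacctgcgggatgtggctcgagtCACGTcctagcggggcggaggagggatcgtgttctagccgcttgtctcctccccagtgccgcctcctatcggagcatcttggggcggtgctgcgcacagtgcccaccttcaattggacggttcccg

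The Slc2a1 window held 2 matches to the HIF-1 core, an ACGTG 36 bases and a GCGTG 61 bases before the start. The Adm window held 2 GCGTG matches, 90 and 54 bases before the start. In Aldoa, an ACGTG lay 126 bases before the start that the printed window precedes, the same site fell in another, overlapping window, and the remaining window held none. Neither of the 2 Ogt windows, which end inside the annotated gene at positions 101640050 and 101640217, held a match. At least 1 such core is found in 38.6% of all 32851 RefSeq windows of this length, so a match is common. No window of the 4 genes held either heat shock element pair, which 12.8% of all windows do. These letters describe the sequence only.

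Slc2a1, the glucose carrier, lay far down the negative side. Probe 1012 read −0.90, −0.95 and −0.59 in treatments 1, 2 and 3, and its 12 arrays ran from −1.16 to −0.39 with a median of −0.79. Probe 6387 read −0.85, −0.92 and −0.62, with arrays from −1.14 to −0.50 and a median of −0.79. Both probes were negative on all 12 arrays, and in both treatment 3 lay nearest to 0. Their means were −0.81 ± 0.19 and −0.80 ± 0.15 (SD, n = 3 treatments). The 2 probes differed by at most 0.22 on any array and correlated at r = 0.80 over the 12 arrays, which share their hybridisations. As a gene, Slc2a1 stood at −0.81 ± 0.17, or 1.75-fold if the log has base 2 and 2.24-fold if it is natural. This was the third lowest of 3838 gene means on slide type 1.

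Ogt, the O-GlcNAc transferase, was negative on either slide type. Its probe on slide type 1, number 2375, read −0.51, −0.36 and −0.53 in the 3 treatments and −0.47 ± 0.09 on average. Its arrays ran from −0.81 to −0.26 with a median of −0.46, so none reached 0. This was the 17th lowest gene mean of slide type 1 and is 1.38-fold in base 2 or 1.59-fold in natural log. Of its probes on slide type 2, probe 5112 read −0.62, −0.56 and −0.47 (−0.55 ± 0.07) and probe 7288 read −0.85, −0.82 and −0.81 (−0.82 ± 0.02). Each treatment mean was negative, and their spread was small beside the spread of the single arrays. The 2 probes together gave −0.69 ± 0.04, the 18th lowest of 4075 gene means on that slide type.

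The arrays of slide type 2 did not all put Ogt on 1 side. In treatment 2, probe 5112 read 0.38 and 0.23 where the heat-shocked sample was in channel 1 but −1.49 and −1.35 where it was in channel 2. Probe 7288 read −0.12 and 0.01 on the former and −1.57 and −1.58 on the latter. The treatment mean thus lay between 2 pairs of arrays that did not overlap. In treatment 1 probe 5112 read −0.68 and −0.74 in the first order against −0.69 and −0.36 in the second, and in treatment 3 it read −0.37 and −0.30 against −0.64 and −0.58. Over all arrays, 10 of 12 were negative for probe 5112 and 11 of 12 for probe 7288. The mean of the gene was −0.30 in the first channel order and −1.07 in the second. The deposited medians of the 4 arrays of treatment 2 on slide type 2 lay at −1.51, −1.30, −1.28 and −1.18 before centring and before the sign was turned, with the same sign in both channel orders. The part of that shift in the Ogt values was not tested.

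Aldoa, the glycolytic aldolase, was positive, with the widest spread between treatments of the 4 genes on slide type 1. Probe 6038 read 0.25, 0.27 and 0.58 in treatments 1, 2 and 3, and its 12 arrays, all positive, ran from 0.07 to 0.76 with a median of 0.32. Probe 6948 read 0.22, 0.21 and 0.60, with arrays from −0.05 to 0.82, a median of 0.32 and 11 of 12 positive. Treatment 3 was the highest in both probes. Their means were 0.37 ± 0.18 and 0.34 ± 0.22, and on no array were the 2 probes more than 0.12 apart (r = 0.99 over 12 arrays). The gene mean of 0.35 ± 0.20 was the 108th highest of slide type 1, and is 1.28-fold if the log has base 2.

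Adm, the adrenomedullin gene, had the smallest values and the most probes. Probe 338 read 0.13, 0.27 and 0.32 in the 3 treatments (0.24 ± 0.10), and all its arrays lay between 0.05 and 0.38. Probe 370 read 0.20, 0.17 and 0.26 (0.21 ± 0.05), with arrays from −0.10 to 0.45. Probe 5793 read 0.17, 0.35 and 0.37 (0.30 ± 0.11), with arrays from 0.02 to 0.49. Treatment 1 was the lowest in 3 of the 4 probes and the second lowest in probe 370. Probe 5859 read 0.10, 0.27 and 0.19 (0.19 ± 0.08), with arrays from −0.00 to 0.42. Probes 338 and 5793 were positive on all 12 arrays, and probes 370 and 5859 on 11 of 12. Pairs of Adm probes correlated at r = 0.33 to 0.74, lower than the Aldoa or Slc2a1 probes did. They differed on single arrays by up to 0.33. Probes 338 and 5793 differed by at most 0.20, less than the 0.22 of the Slc2a1 probes. Averaged, Adm stood at 0.23 ± 0.07, the 199th highest gene mean of slide type 1 and 1.18-fold in base 2.

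In order of their means on slide type 1 the genes were Slc2a1, Ogt, Adm and Aldoa. The ranges of the 3 treatments did not overlap between Slc2a1 (−0.93 to −0.61) and Ogt (−0.53 to −0.36), nor between Ogt and Adm (0.15 to 0.29). Those of Adm and Aldoa (0.23 to 0.59) overlapped.

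Differences between genes within an array do not depend on how the array is centred. Aldoa minus Slc2a1 was the steadiest, at 1.1 in treatment 1, 1.17 in treatment 2 and 1.19 in treatment 3 (1.16 ± 0.04), and it stayed between 0.91 and 1.29 on all 12 arrays. Adm minus Slc2a1 was 1.03, 1.20 and 0.89 (1.04 ± 0.15), also positive on all 12 arrays. The 2 HIF-1 targets Aldoa and Adm thus each lay about 1 unit from Slc2a1, also such a target, in every treatment. Aldoa minus Ogt was 0.74, 0.60 and 1.12 (0.82 ± 0.27), and Adm minus Ogt was 0.66, 0.63 and 0.82 (0.70 ± 0.10), each positive on all 12 arrays. Since the genes were chosen by their log ratios in this same comparison, gaps between genes of opposite sides follow in part from that choice. Genes on the same side were closer, which the choice also favours. Ogt minus Slc2a1 was 0.37, 0.57 and 0.08 (0.34 ± 0.25) and ran from −0.15 to 0.80, with 10 of 12 arrays above 0. Aldoa minus Adm was 0.08, −0.02 and 0.30 (0.12 ± 0.16), with 10 of 12 arrays above 0 and a treatment on either side.

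**Figure D2:**
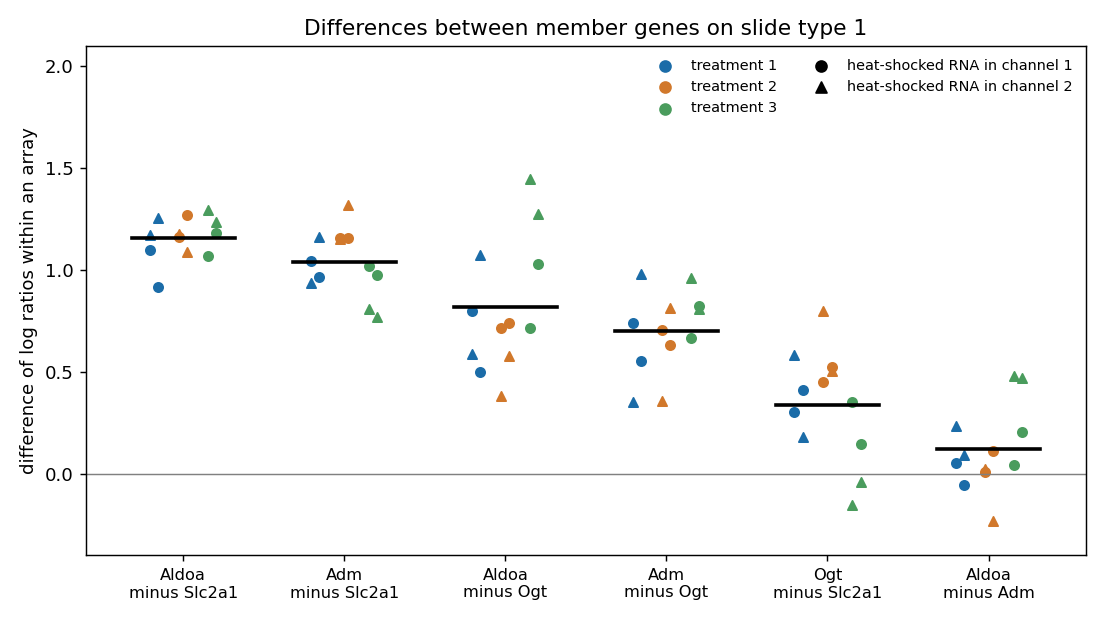
Difference of the log ratios of 2 genes on the same array (y axis, log base not stated) for the 6 pairs of genes on slide type 1. Each point is 1 of 12 arrays, coloured by treatment and shaped by the channel of the heat-shocked RNA, and bars are means of the 3 treatments; the 4 pairs that join a gene of either side lie above 0 on all arrays, whereas Ogt minus Slc2a1 and Aldoa minus Adm reach below 0.

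The side of 0 on which a gene lies does depend on centring. After the sign was turned, the medians of the arrays averaged 0.25, 0.07 and 0.59 in treatments 1, 2 and 3 of slide type 1. Without centring Slc2a1 read −0.62, −0.86 and −0.02, so that in treatment 3 it lay next to 0. The Ogt probe of slide type 1 read −0.25, −0.29 and 0.06, and was thus the 1 probe of 11 that changed side. Aldoa then read 0.49, 0.31 and 1.17 and Adm 0.41, 0.33 and 0.87, both further from 0 than with centring in every treatment. For slide type 2, whose offsets averaged 0.05, −0.09 and 0.28, Ogt read −0.68, −0.77 and −0.36. Negative values thus shrank and positive ones grew on slide type 1, most of all in treatment 3. The median of all genes moved with them on slide type 1, from −0.04 to 0.27. For slide type 2 it moved from −0.05 to 0.03.

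**Figure D3:**
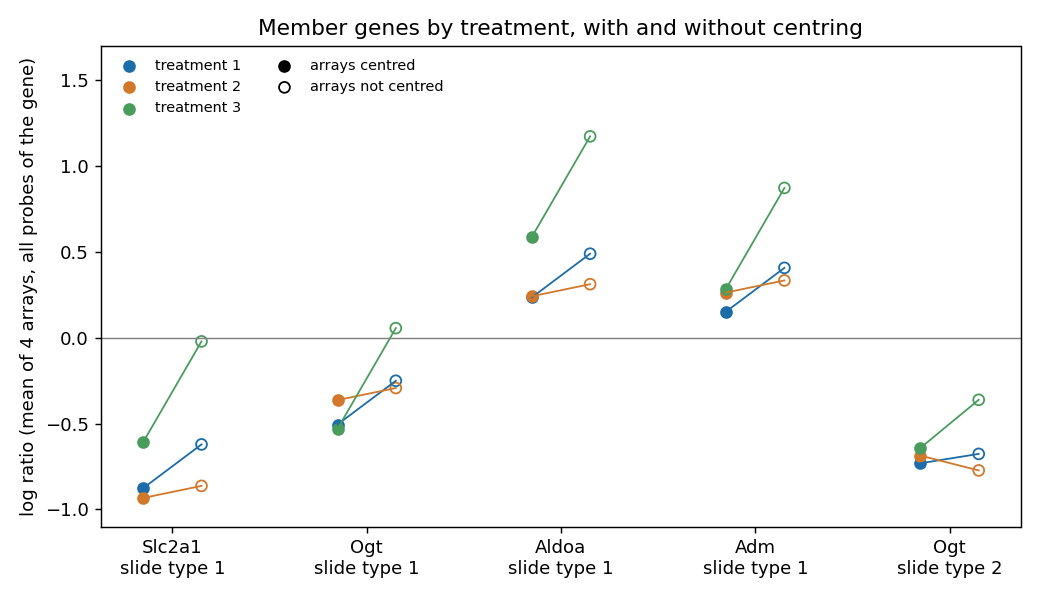
Log ratio of each gene in each treatment (y axis, mean of 4 arrays and of all probes of the gene), with arrays centred on their median (filled) and not centred (open), lines joining the 2 values of a treatment. Treatment 3 (green) moves most; in it Slc2a1 goes from −0.61 to −0.02 and Ogt on slide type 1 from −0.53 to 0.06, while Aldoa and Adm stay positive throughout.

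Whether the 2 channel orders gave different values was tested, since the choice of the genes made no use of that difference. On slide type 1 none of the 9 probes passed limma's test over all 7680 probes (0 at an unadjusted p below 0.05), where 22.2% of all probes did. The difference, heat-shocked RNA in channel 1 minus in channel 2, was largest, with the lowest p, for Adm probe 370 at 0.24 ± 0.09 (adjusted p = 0.155), which averaged 0.33 in the first order and 0.09 in the second. The Slc2a1 probes averaged −0.80 and −0.76 in the first order and −0.83 in the second for both. Without centring, Ogt probe 2375 (0.35, adjusted p = 0.0450) and Adm probe 370 (0.49, adjusted p = 0.00923) passed. Neither Ogt probe of slide type 2 passed, with 0.013% of all probes passing. Probe 7288 differed by 0.94 ± 0.57 (adjusted p = 0.443, unadjusted p = 0.033) and probe 5112 by 0.60 ± 1.00 (adjusted p = 0.605). Without treatment 1, Ogt probe 7288 passed at a difference of 1.21 (adjusted p = 0.0366). A difference that does not pass is not shown to be absent, above all for the Ogt probes of slide type 2, whose orders lay 0.60 and 0.94 apart.

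Other genes of the same pathways were taken from 5 lists with 149 genes beside the 4. Of these, 40 were measured on slide type 1 and 35 on slide type 2. The lists were chosen with earlier results of these data known, so the p-values of their genes are no independent support. On slide type 1, 3 of 40 passed the test as positive and 3 as negative, against 5.73% and 5.65% of all genes, and the median of the 40 was −0.03 where that of all genes was −0.04. For slide type 2 the counts were 6 positive and 9 negative of 35, against 18.5% and 31.9% of all genes, with medians of −0.04 and −0.05. Neither set of counts stood out from its background. Leaving out treatment 1 left 1 called gene of the 6 on slide type 1, and leaving out treatment 3 left 2. Without centring, 4 genes passed on slide type 1, all on the positive side, with a median of 0.27 for the list and 0.27 for all genes. For slide type 2 the same setting left 2 called genes of the lists, Txnip and Hcfc1, both positive, and 76 positive and 65 negative among all genes. In either channel order alone, the call of Txnip was the 1 call left on slide type 2. With arrays centred on the probes of 1 symbol, the split on slide type 2 was 12 positive to 6 negative.

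Among glucose transporters and glycolytic enzymes, 14 were measured on slide type 1, of which 2 passed as positive and 1 as negative. The shares over all genes there were 5.73% and 5.65%. Aldoc, the brain-type aldolase and thus the nearest relative of Aldoa measured, changed by 0.24 ± 0.15 (n = 3, adjusted p = 0.0472). Ldha, a lactate dehydrogenase subunit, changed by 0.21 ± 0.10 (adjusted p = 0.0473), and it also stands on the hypoxia list. Both lay on the side of Aldoa, and both calls were lost when treatment 1 or treatment 3 was left out, that of Ldha also without treatment 2. Aldoc averaged 0.39 in the first channel order and 0.08 in the second, and Ldha 0.31 and 0.12. Both calls were also lost in the second order alone, and on the arrays with or without suffix B alone. Slc16a1, the monocarboxylate carrier MCT1, changed by −0.23 ± 0.02 (adjusted p = 0.0235), a call lost without treatment 1 and without treatment 2. It turned to 0.078 without centring. Its channel orders averaged −0.04 and −0.41, and its call was also lost in the first order alone. The phosphofructokinase gene Pfkl stood at 0.18 ± 0.15 (adjusted p = 0.131). The other glucose carriers on slide type 1 had means near 0, with Slc2a3 (GLUT3) at 0.01 ± 0.22 and Slc2a8 (GLUT8) at 0.02 ± 0.12. Slc2a1 stood at −0.81. In treatments 1, 2 and 3, Slc2a3 read −0.13, −0.11 and 0.26, and Slc2a8 read 0.14, 0.03 and −0.10. Slc2a3 and Slc2a8 were named after their values were seen. The difference between these carriers was not tested.

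Slide type 2 measured 8 genes of this list, of which 2 passed, both negative, where 31.9% of all genes passed as negative. Slc2a4, the insulin-responsive carrier GLUT4, changed by −0.47 ± 0.09 (adjusted p = 1.42e-05), the side on which Slc2a1 lay on slide type 1. Bpgm, which makes 2,3-bisphosphoglycerate, changed by −0.28 ± 0.04 (adjusted p = 0.00091), with 1 probe at −0.47 and the other at −0.09. Ldhb stood at −0.15 ± 0.23 (adjusted p = 0.0913) and Pkm, a pyruvate kinase gene, at −0.10 ± 0.14 (adjusted p = 0.169). The Slc2a4 and Bpgm calls were lost without centring.

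Of the hexosamine and O-GlcNAc genes, none of 4 passed on slide type 1 (0 by limma after adjustment, 1 at an unadjusted p below 0.05). The shares over all genes there were 5.73% positive and 5.65% negative, so a count of 0 among 4 does not stand out. Oga, which encodes the enzyme that removes what Ogt adds, stood at −0.09 ± 0.07 (adjusted p = 0.407), Sin3a, a corepressor that binds Ogt, at −0.07 ± 0.04 (adjusted p = 0.453), and Renbp at −0.03 ± 0.14 (adjusted p = 0.842). Hcfc1, a chromatin cofactor that Ogt modifies and cleaves, read −0.18 ± 0.10 there (adjusted p = 0.0905), and 0.12 without centring. Oga and Sin3a also turned positive in that setting, at 0.22 and 0.23. Slide type 2 measured 4 of these genes as well, of which 2 passed, both positive, where 18.5% of all genes passed as positive. There Hcfc1 changed by 0.55 ± 0.01 over 4 probes that ran from 0.43 to 0.76 (adjusted p = 1.43e-06). Gfpt1, the entry enzyme of the hexosamine pathway, changed by 0.15 ± 0.08 (adjusted p = 0.0371), a call lost without treatment 1, without treatment 3 and without centring. Its means over the 2 channel orders were −0.29 and 0.60. Sin3a stood at −0.05 ± 0.09 (adjusted p = 0.466), the mean of probes on opposite sides, at −0.30 and 0.20, and its first probe alone passed (−0.30, adjusted p = 0.000936). Gnpnat1 stood at −0.04 ± 0.03 (adjusted p = 0.590) over 4 probes from −0.13 to 0.14.

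Of the hypoxia response genes on slide type 1, 2 of 17 passed as positive, the side of Aldoa and Adm, and 1 as negative. Over all genes there, 5.73% and 5.65% did. Beside Ldha, Hmox1, whose enzyme breaks down heme, changed by 0.24 ± 0.11 (adjusted p = 0.0309). Tfrc, the transferrin receptor gene, changed by −0.23 ± 0.12 (adjusted p = 0.0419). Leaving out treatment 1 or treatment 3 ended both calls, and Tfrc turned to 0.075 without centring. Hmox1 averaged 0.41 in the first channel order and 0.08 in the second, and Tfrc −0.03 and −0.43. The call of Hmox1 was lost in the second order alone, and that of Tfrc in the first alone. The lactate carrier Slc16a3 (MCT4) stood at −0.14 ± 0.04 (adjusted p = 0.146). The 17 genes had a median of 0.01, where all genes had −0.04. Of 10 such genes on slide type 2, 1 passed as positive and 2 as negative, against 18.5% and 31.9% of all genes. Tfrc was again negative at −0.27 ± 0.12 (adjusted p = 0.00215). Egln2, a prolyl hydroxylase that marks HIF subunits for removal, changed by −0.41 ± 0.16 (adjusted p = 0.000121), and the mitophagy receptor gene Bnip3 changed by 0.24 ± 0.06 (adjusted p = 0.00291). Egln2 averaged −0.00 in 1 channel order and −0.82 in the other, and Bnip3 0.57 and −0.09. Igfbp3 stood at −0.14 ± 0.16 (adjusted p = 0.0827).

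No gene of adrenomedullin signalling other than Adm was measured on slide type 1. Slide type 2 measured 2, and 0 passed limma's test, none at an unadjusted p below 0.05 either. Of all genes there, 18.5% passed as positive and 31.9% as negative. The adrenomedullin-binding receptor Ackr3 stood at 0.10 ± 0.05 (adjusted p = 0.130) and Crcp, a component of the receptor complex, at 0.06 ± 0.11 (adjusted p = 0.414).

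Genes that control glucose uptake gave 1 call among 8 on slide type 1 and 8 among 12 on slide type 2. Of all genes, 5.73% were called as positive and 5.65% as negative on slide type 1, and 18.5% and 31.9% on slide type 2. On slide type 1, Akt1, a kinase of the insulin pathway, changed by −0.41 ± 0.04 (adjusted p = 0.00105). Stk11, Mlx and Igf1r stood at −0.11 ± 0.04, −0.14 ± 0.18 and −0.07 ± 0.07, with adjusted p of 0.246, 0.259 and 0.469. Of the 8 on slide type 2, 3 were positive and 5 negative. Txnip, which lowers glucose uptake by drawing GLUT1 from the cell surface, changed by 1.85 ± 0.22 (adjusted p = 6.15e-12) and read 1.67, 2.09 and 1.79 in the 3 treatments. It was thus on the side opposite to Slc2a1. Txnip was the only one of the named genes of slide type 2 whose call held in every alternative that was tried. Since the lists were chosen with earlier results of these data known, its p-value is no independent support. Akt2 changed by −0.37 ± 0.08 (adjusted p = 0.000118, probes at −0.53 and −0.21), Gipc1, which binds GLUT1, by −0.34 ± 0.15 (adjusted p = 0.000474), and the kinase gene Sgk1 by 0.27 ± 0.02 (adjusted p = 0.00114). Gipc1 averaged 0.03 in the first channel order and −0.72 in the second, and Sgk1 −0.04 and 0.58. Without centring these last 3 calls were lost, and so was that of Akt1.

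**Figure D4:**
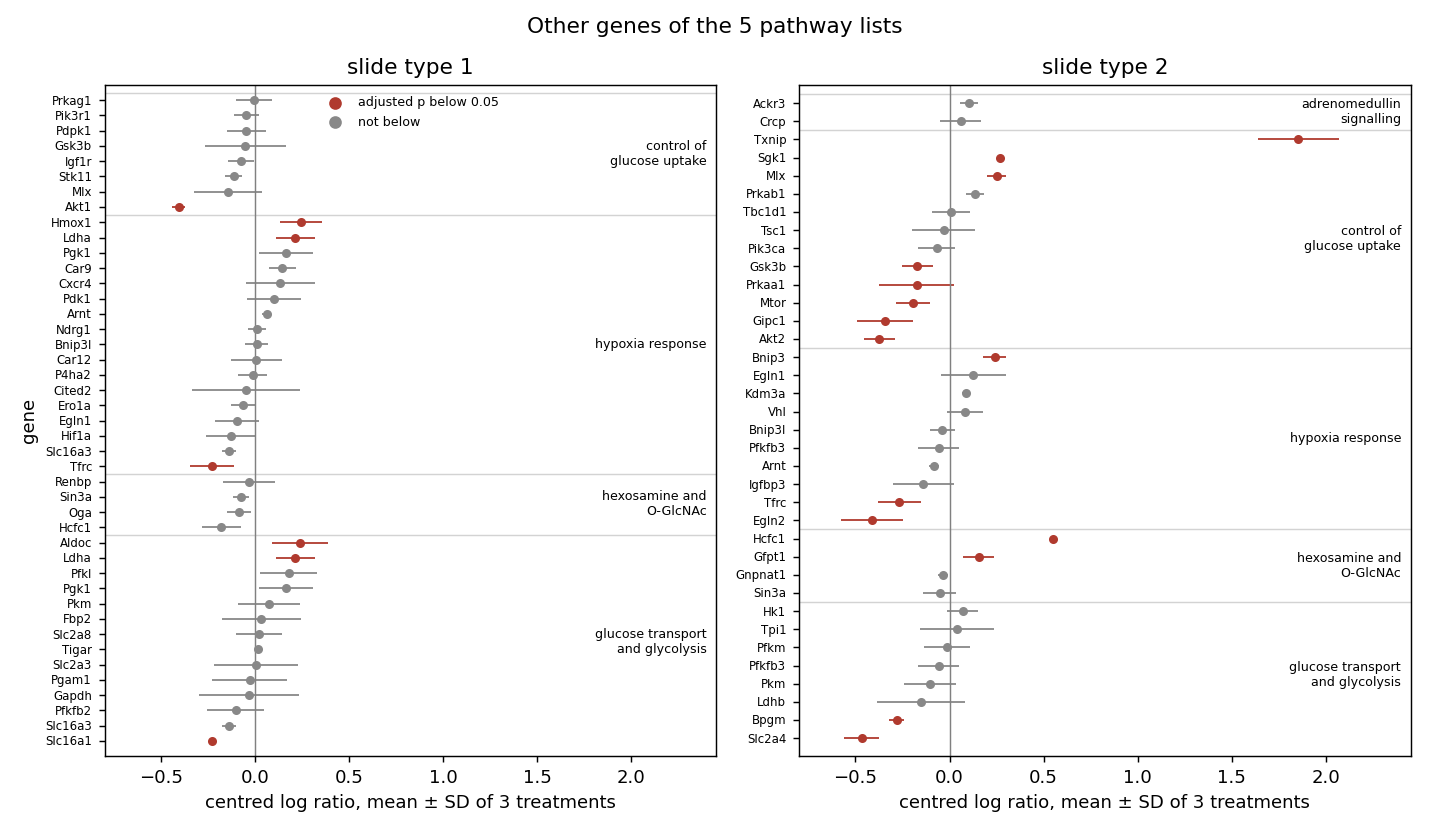
Centred log ratio (x axis, log base not stated; mean ± SD of 3 treatments) of the other measured genes of the 5 pathway lists on either slide type, grouped by list; red marks adjusted p below 0.05 in limma. On slide type 1 the genes lie between −0.41 (Akt1) and 0.24 (Hmox1), and on slide type 2 Txnip at 1.85 lies apart from the rest, which run from −0.47 (Slc2a4) to 0.55 (Hcfc1).

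For each of the 11 probes, the 3 probes of other genes nearest to it were found by the root mean square difference (RMS) over the 12 arrays of the slide type. Nearest to both Slc2a1 probes were those of Rrm2, a ribonucleotide reductase subunit (RMS 0.153 and 0.145, mean −0.86 ± 0.08), and of the death receptor gene Fas (0.173 and 0.151, mean −0.84 ± 0.16). The third was Kpna2 for probe 1012 (0.175) and the splicing factor gene Srsf3 for probe 6387 (0.167). Kpna2 correlated with probe 1012 at r = 0.93 and Fas with probe 6387 at r = 0.87. The 2 Slc2a1 probes correlated with each other at r = 0.80, and the other pairs with these neighbours lay below that. Over all probes the median distance from the 2 Slc2a1 probes was 0.839 and 0.815. The nearest of the Ogt probe on slide type 1 were Snhg5, Cxxc5 and Cnot2, at 0.149 to 0.177. Of the Ogt probes on slide type 2, probe 5112 was nearest to Snrpd1, Men1 and Septin2 (0.091 to 0.108) and probe 7288 to Jpt1, Mex3a and Tsc22d1 (0.198 to 0.239), so the 2 shared none of their 3. Both Aldoa probes had the same 3 nearest genes, Dcbld2 (0.073 and 0.052), Alkbh1 (0.076 and 0.102) and Ppp2r2d (0.097 and 0.109). Dcbld2 correlated with both at r = 0.98, where the 2 Aldoa probes correlated with each other at r = 0.99. The 4 Adm probes were nearest to Ntm and Prmt9, Spp2 and Wwp2, Prmt9 and Jarid2, and Adamts4 and Zcchc9, at 0.059 to 0.088. Over all probes the median distance from the Adm probes was 0.354 to 0.445, smaller than from the Slc2a1 probes. This distance includes the difference of means, so it is larger for a probe far from 0. Neighbours are thus mostly probes of a like mean. Only 7 and 9 of the 7680 probes had a lower mean than Slc2a1 probes 1012 and 6387. None of these neighbours is on the pathway lists.

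Markers of tissues that can come with an embryo were set beside these values. On slide type 1, none of 1 erythroid, 9 yolk sac endoderm and 6 trophoblast genes passed limma's test (1 of the 9 and 1 of the 6 at an unadjusted p below 0.05), and the lists ran from −0.15 to 0.04 for yolk sac endoderm and from −0.20 to 0.02 for trophoblast. Of all genes on slide type 1, 5.73% passed as positive and 5.65% as negative. On slide type 2, none of 5 erythroid genes passed (1 at an unadjusted p below 0.05), while the yolk sac genes Apoc2 (−0.26 ± 0.07, adjusted p = 0.00185) and Dab2 (−0.17 ± 0.15, adjusted p = 0.0311), 2 of 3, and the 1 trophoblast gene, the keratin gene Krt18 (−0.19 ± 0.14, adjusted p = 0.0212), were negative, as Ogt was and as 31.9% of all genes there were called. All 3 calls were lost without centring and in either channel order alone, that of Dab2 also without treatment 1 or 3 and that of Krt18 without treatment 1 or 2. No heart muscle gene of the list was measured. Ratios hold no levels, so the labelled tissue could not be checked against its markers, and the part of these tissues in the values of the 4 genes was not tested.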

How the data were processed

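The deposited values are the authors' log ratios of 2-colour arrays, 1 value table for each of 2 slide types with 7680 probes and 12 arrays each, treated here as a score, since the sources used here give no log base, numerator, background correction or normalization. Each table had 0 missing values and 0 columns left unmapped. Without spot intensities, dim and saturated spots could not be recognised, and the number of arrays limits the precision.

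The sign was turned where channel 2 held the heat-shocked sample, and the median of all probes was subtracted within each array. The 4 arrays of each treatment on a slide type were averaged, giving the channel orders equal weight, which left 3 replicates per slide type. A gene's value is the mean of every probe with that 1 symbol in the platform annotation (4749 and 4935 probes with 1 symbol, 227 and 275 with several and 2704 and 2470 with none). No probe with several symbols held 1 of the 4 genes. Entrez identifiers matched RefSeq for 4712 and 4884 probes, and 0 symbols were updated.

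Tests used limma 3.58.1 in R 4.3.3 (lmFit and eBayes on an intercept, Benjamini-Hochberg adjustment over all genes of a slide type, threshold 0.05). The difference between channel orders was fitted likewise over all probes. The fits were run on simulated data, independent normal values with each gene's own spread and 200 changed genes. Of 100 genes changed by 0.5, 85 were recovered on slide type 1 and 87 on slide type 2. Of 3638 and 3875 unchanged genes, 5 and 10 were called. The simulation had no channel orders, array offsets or centring, so it cannot show how these bear on the calls. Named genes were all probes of the 4 genes, up to 4 genes of each pathway list and slide type with the smallest p, the 3 nearest probes of each probe, and up to 3 called genes of each cell type list. Slc2a3, Slc2a8, Arnt, Bnip3l, Egln1, Lrp2 and Gsk3b were named beyond this rule, after their values were seen. The 4 genes, the lists and the tests were chosen with earlier results of these data known. Alternatives were no centring, centring on probes with 1 symbol, 1 channel order, arrays with or without suffix B, a robust prior, the first probe of each gene, and leaving out each treatment.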

Additional observations from a re-analysis of the deposited data

Results flagged for a closer look

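Ogt probe 5112 on slide type 2 had 1 array in treatment 1, at −0.36, that stood off from the other 3, at −0.74 to −0.68. The gap made up 0.854 of the range, above Dixon's critical value for 4 values. It was 1 of 33 such groups of 4 arrays, and chance alone marks a share of about 0.05 of groups.

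Hcfc1 and Arnt, each measured on both slide types with different probes, lay on opposite sides in all 3 treatments when arrays were centred. Hcfc1 was −0.18 ± 0.10 on slide type 1 and 0.55 ± 0.01 on slide type 2, which is 0.73 higher. Arnt, a HIF partner subunit, was 0.06 ± 0.02 and −0.08 ± 0.03, a difference of −0.14. Without centring, Hcfc1 was 0.12 and 0.63 and Arnt 0.37 and 0.0012, so neither gene then had means on opposite sides. These differences were not tested.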

How the results depend on the processing

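Without centring, Slc2a1 averaged −0.50, Ogt −0.16 on slide type 1 and −0.60 on slide type 2, Aldoa 0.66 and Adm 0.54, and the pathway genes called fell from 15 to 2 on slide type 2; the channel orders then differed for 2 of the 9 probes of slide type 1. Ogt on slide type 2 averaged −0.61 with arrays centred on probes with 1 symbol, −0.30 and −1.07 with heat-shocked RNA in channel 1 or 2 only, −0.64 and −0.73 with or without suffix B only, and −0.55 for its first probe. All these kept the side of the value reported. The pathway genes called on slide type 1, 6 in all, numbered 10 in channel order 1 only, 1 and 3 with or without suffix B only, and 1 to 4 when a treatment was left out. On slide type 2, 15 in all, they numbered 1 in either channel order alone and 13 to 16 when a treatment was left out. The Ogt probes of slide type 2 whose channel orders differed numbered 0 to 1 when a treatment was left out. Leaving out a treatment moved Slc2a1 to between −0.90 and −0.74, Ogt to between −0.52 and −0.43 on slide type 1 and between −0.71 and −0.66 on slide type 2, Aldoa to between 0.24 and 0.41 and Adm to between 0.21 and 0.28. Among called genes, signs turned for Slc16a1 (0.078) and Tfrc (0.075) on slide type 1 without centring, for Gfpt1 (−0.29), Gipc1 (0.030) and Sgk1 (−0.041) on slide type 2 in channel order 1 only, and for Bnip3 (−0.092) in channel order 2 only. Named genes that were not called turned as well, such as Hcfc1 (0.12), Slc16a3 (0.17), Stk11 (0.19), Mlx (0.16) and Igf1r (0.23) on slide type 1 without centring. The cause was not tested, except that fewer arrays enter the fits of 1 channel order or 1 suffix.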
